A study of Mus musculus with 69 samples.

Results

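Skin of F1 hybrid mice long after TPA was compared with the same skin in its acute state: 6 arrays of F1 dorsal skin at 1008 h against 3 arrays at 48 h, 9 of the 69 arrays of the series, taken by the strain and hours of their labels. TPA, a phorbol ester acting through protein kinase C, is painted on mouse skin and brings on inflammation and thickening of the epidermis. F1 is the FVB/N x Spret/Ei hybrid, that is, a cross of an inbred laboratory strain and a wild-derived Mus spretus strain. All mice were aged to 8 weeks, and the treated skin had been shaved and then given a single dose of TPA in acetone, per the labels' protocols, although the series is described as one of replicate exposure. That protocol lists sampling up to 1 week and does not list 1008 h. F1 skin given as untreated (0 h, n = 4), F1 skin at 72 h (n = 2) and 168 h (n = 1), FVB skin at 48 h and 1008 h (n = 3 each) and SPR skin, from Spret/Ei, at the same times (n = 2 each) served for reference, all dorsal skin handled in the same way. Vehicle-treated skin was not analysed here, so age, regrowth after shaving and TPA cannot be told apart between 48 h and 1008 h. The labels do not say which mouse gave which array, so the p-values rest on differences among arrays that may be partly technical.

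In skin that has met TPA, basal keratinocytes enter the cell cycle and the layers above them switch to an activated programme with the stress keratins KRT6 and KRT16, small proline-rich proteins of the cornified envelope, and antimicrobial proteins such as the S100A8 and S100A9 pair and beta-defensins. The activated state normally fades as the epidermis returns to its resting thickness. Hair follicles run a cycle of their own, in which the growth phase (anagen) brings the inner root sheath, the hair shaft keratins and the keratin-associated proteins of the shaft.

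The 9 arrays carried the epidermal keratins Krt5, Krt14, Krt1 and Krt10 at log2 values between 11.99 and 13.03, far above the array median of about 6.09. Their interquartile ranges lay between 3.53 and 3.89, and correlations over genes were 0.975 to 0.992 between the times against 0.977 to 0.992 within 1008 h and 0.986 to 0.991 within 48 h. The arrays of F1 at 72 h (replicate 2) and of SPR at 12 h (replicate 1), which entered the fit for its estimate of spread, stood apart with ranges of 2.39 and 1.39. Of the 1008 h arrays 4 were of batch 2 and 2 of batch 3, and of the 48 h arrays 2 and 1. The number of arrays limits the precision. All values are deposited log2 values, and a change is the fitted log2 difference between 1008 h and 48 h with a term for the batch, ± its standard error.

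No gene passed the test between 1008 h and 48 h in F1 skin. Of 18820 genes tested with limma, 0 (0.00%) had a Benjamini-Hochberg adjusted p under 0.05 with a log2 change of at least 1, and 0 at any size of change. At an unadjusted p under 0.05 there were 701 genes (409 higher and 292 lower at 1008 h), or 3.73% of those tested. The lowest adjusted p was 0.09996, for Alox8. The median change was 0.01 and the median standard error 0.22. Leaving out replicate 2 at 48 h gave 1 call (Jakmip2), leaving out replicate 2 at 1008 h gave 4 (Alox8, Cyp4f37, H2-M5 and Prss53) and leaving out replicate 6 at 1008 h gave 3 (Olfr558, Serpinb6d and Tgm7). With the arrays of batch 3 alone, 2 at 1008 h against 1 at 48 h, 23 genes were called, 21 of them higher and among them 4 of the inner root sheath and 5 keratin-associated genes, and with batch 2 alone 0. Without the 2 arrays that stood apart, Alox8 and Prss53 were called. A description of levels therefore follows, with tests only where they passed. Over all genes, 451 (2.40%) had all 6 arrays at 1008 h above all 3 at 48 h, and 387 (2.06%) all 6 below.

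Both times were also set against untreated skin. Against 0 h, 195 genes (1.04%) rose and 67 (0.356%) fell at 48 h, and 97 (0.515%) rose and 54 (0.287%) fell at 1008 h. Without replicate 3 of 48 h the first count of 262 in all was 120. The second, 151 in all, was 63 without replicate 2 of 0 h, 83 without replicate 4 of 0 h, 70 and 84 without replicates 1 and 2 of 1008 h, and 255 without replicate 6 of 1008 h. The counts come from 3 and 6 arrays and have no settled order: with batch 3 alone they were 469 at 48 h and 960 at 1008 h, and with batch 2 alone 0 and 0. Both comparisons use the same 4 untreated arrays, and each shares its treated arrays with the comparison of 1008 h and 48 h.

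The lipoxygenase gene Alox8 (probe set 10387257) came nearest to passing. ALOX8 oxygenates arachidonic acid and is known for its induction by phorbol ester in mouse skin. Its log2 values at 48 h were 9.80, 9.50 and 10.81, and at 1008 h they ran from 6.38 through a median of 7.06 to 8.04. All 6 late arrays lay below all 3 acute ones, and the untreated arrays were lower still, at 6.13, 4.72, 5.75 and 5.17. The change was -2.94 ± 0.57 (SE, n = 6 and 3; 95% interval -4.09 to -1.80; adjusted p = 0.09996), a 7.68-fold lower level. With F1 arrays fitted alone the adjusted p was 0.00127, without the 2 arrays that stood apart it was 0.0379 and without replicate 2 of 1008 h it was 0.0493, whereas without replicate 3 of 48 h it was 1. Alox8 rose at 48 h against 0 h by 4.50 (adjusted p = 1.09e-05), and stood 1.56 above 0 h at 1008 h (adjusted p = 0.145). At 72 h its values were 5.98 and, in the array of narrow range, 5.72, and at 168 h 7.64. Of the 17 measured genes of the cyclooxygenase and lipoxygenase list, Alox8 alone had no overlap between the times on the lower side, beside 2.06% of all genes. The list's median was 0.11 beside 0.01 for all genes. The phospholipase gene Pla2g4e, of a family that releases fatty acids from membranes, stood at 8.80, 8.82 and 9.87 at 48 h and between 6.84 and 8.91 at 1008 h, a change of -1.04 ± 0.48, with overlap. The epidermal lipoxygenase gene Alox12e ran the other way, from 9.75 to 10.36 at 48 h and from 10.14 to 10.98 at 1008 h (0.64 ± 0.39).

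Antimicrobial and acute phase genes, with Alox8, held the 5 lowest changes of all genes in point value. S100a8 (probe set 10493831), whose product forms the calprotectin dimer with that of S100a9, was at 9.69, 10.02 and 11.23 at 48 h. At 1008 h it was at 7.98, 7.17, 5.16, 7.72, 7.98 and 6.36 in replicates 1 to 6, all below the acute arrays and with replicates 3 and 6 lowest. Its change was -3.25 ± 0.76 (95% interval -4.78 to -1.72; adjusted p = 0.272). S100a9 followed at -2.55 ± 0.64 (adjusted p = 0.316). The beta-defensin gene Defb3 was at 9.26, 9.79 and 12.09 at 48 h and between 5.78 and 8.77, median 7.87, at 1008 h. Its change of -2.77 ± 0.65 (adjusted p = 0.272) was -1.92 when replicate 3 of 48 h was left out. Lcn2, which codes for an iron-siderophore-binding protein, ran from 8.54 to 11.02 at 48 h and from 6.18 to 8.50 at 1008 h (-2.24 ± 0.58; adjusted p = 0.319). The protease inhibitor gene Slpi and the chitinase-like gene Chil1 also had all 6 late arrays below the acute ones, at -0.85 ± 0.33 and -1.09 ± 0.62. In all, 6 of the 18 measured members had no overlap on the lower side and 1, Defb1, on the higher side, beside 2.06% and 2.40% of all genes, and none passed the test. The list's median change was -0.49, at -0.94 within batch 2 and -0.18 within batch 3.

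By the test, few of these genes were still above the untreated level at 1008 h. At 48 h 8 of the 18 members had risen over 0 h, beside 1.04% of all genes, and at 1008 h 3 were still above it by the test, beside 0.515%: Chil1 by 3.20 (adjusted p = 0.000735), S100a9 by 2.32 (adjusted p = 0.0257) and Lcn2 by 2.17 (adjusted p = 0.0211). Without replicate 2 of 0 h, or without replicate 1 of 1008 h, Chil1 was still called and S100a9 and Lcn2 were not. With batch 2 alone no gene was called. S100a8 was 2.29 above 0 h at 1008 h with an adjusted p of 0.0884. S100a8 and S100a9 are also markers of neutrophils. Of the 14 measured neutrophil genes 2 had no overlap on the lower side, beside 2.06% of all genes, and these are the same 2 genes. The granule genes Ngp and Mpo were between 3.29 and 4.81 in the 9 arrays, and the list's mean value was 5.13 to 5.42 at 48 h and 4.37 to 5.13 at 1008 h. The part of neutrophils in these values was not tested, and in whole skin fewer cells of a type and less RNA per cell cannot be told apart.

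Among stress keratins and cornified envelope genes, several were far lower in some late arrays than in others. Krt6b, a keratin of activated epidermis, was at 11.44, 11.40 and 12.43 at 48 h. At 1008 h it was at 11.13, 11.01, 7.63, 11.17, 10.69 and 8.79 in replicates 1 to 6. Replicate 3 lay among the untreated values of 7.46, 5.98, 7.70 and 7.88, and replicate 6 lay above them. The other 4, between 10.69 and 11.17, were just below the lowest acute array. Krt16, the partner of KRT6 in activated epidermis, had the same 2 arrays lowest, at 7.84 and 8.13, with the other 4 between 9.71 and 10.66. The changes were -1.69 ± 0.65 and -1.76 ± 0.64, at -2.36 and -2.49 within batch 2 and at -0.33 and -0.28 within batch 3. The median of the 4 stress keratin genes was -1.63 within batch 2 and 0.03 within batch 3. Krt6a and Krt17 were at -0.25 and 0.04. Krt6a turned to 1.05 with batch 3 alone and to 0.22 without replicate 3 of 48 h, and Krt17 turned to -0.03 after centring arrays on their medians.

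Of 18 measured small proline-rich protein and stefin genes, 14 had a lower point value and 3 had no overlap, beside 2.06% of all genes, with a median of -0.91 (-1.38 within batch 2 and -0.17 within batch 3). Sprr2b, whose product is a cross-linked component of the cornified envelope, was at 8.10, 9.33 and 9.72 at 48 h and at 8.00, 8.20, 5.86, 7.69, 7.69 and 5.92 at 1008 h, a change of -1.82 ± 0.49 (adjusted p = 0.332). Sprr2d was at -1.77 ± 0.62 and the stefin gene Stfa3, of a family of cysteine protease inhibitors, at -1.10 ± 0.61, with values of 10.11 to 10.44 in 4 late arrays and of 7.68 and 6.29 in replicates 3 and 6. In this list 12 of 18 members had risen at 48 h, beside 1.04% of all genes. At 1008 h 10 were above 0 h by the test, beside 0.515%. Without replicate 2 of 0 h only Sprr2a1, Sprr2b and Stfa3 of the list were called against 0 h. Without replicate 1 of 1008 h only Sprr1b, Sprr2a1, Sprr2b, Stfa1 and Stfa3 were, and with batch 2 alone none was. Sprr2 genes and stefin genes are near-identical copies, so a probe set may read more than 1 of them. The mean value of the list in each array shows the same split, with replicates 3 and 6 of 1008 h at 6.54 and 6.35 and the other 4 between 7.62 and 7.95.

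The promoters of this list often held a motif of AP-1. Within the 250 bases before the transcription start (RefSeq, GRCm38.p6, first listed start of each gene), the motif TGANTCA was found on either strand in 9 of 17 promoters, or 52.9%, beside 5.93% of 14749 promoters of measured genes. It was also in 18.8% of promoters of keratin-associated genes and 15.4% of those of inner root sheath genes. Near-identical gene copies may also have alike promoters, so the promoters of such a list are not independent counts. AP-1, made of Fos and Jun proteins, is known to be activated by phorbol esters. The promoters of Sprr2b, chr3:92316455-92316704 (plus strand), and Sprr2d, chr3:92338890-92339139 (plus strand), are shown because these genes had the largest changes among members with the motif. It is in capitals, 195 and 193 bases before the start.
Sprr2b: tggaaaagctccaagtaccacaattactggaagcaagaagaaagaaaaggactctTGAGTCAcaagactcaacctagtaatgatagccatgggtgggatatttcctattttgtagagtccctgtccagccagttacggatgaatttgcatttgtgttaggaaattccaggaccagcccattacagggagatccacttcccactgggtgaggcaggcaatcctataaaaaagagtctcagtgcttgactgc
Sprr2d: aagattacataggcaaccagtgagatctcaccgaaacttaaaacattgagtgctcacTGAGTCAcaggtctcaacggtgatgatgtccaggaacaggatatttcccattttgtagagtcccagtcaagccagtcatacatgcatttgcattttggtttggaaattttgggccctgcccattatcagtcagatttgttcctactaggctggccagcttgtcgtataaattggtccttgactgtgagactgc
No match to the motif was found in the 14 promoters of antimicrobial genes in the table. A TATA box (TATAAA, on the gene's strand, in capitals) was in 1 of the 14, or 7.14%, about the share of all promoters, 7.45%. It was in the promoter of S100a8, chr3:90668821-90669070 (plus strand).
S100a8: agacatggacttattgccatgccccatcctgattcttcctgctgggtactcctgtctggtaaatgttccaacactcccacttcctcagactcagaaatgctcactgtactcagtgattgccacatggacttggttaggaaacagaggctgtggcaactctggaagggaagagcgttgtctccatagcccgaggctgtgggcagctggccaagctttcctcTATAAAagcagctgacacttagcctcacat

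**Figure D1:**
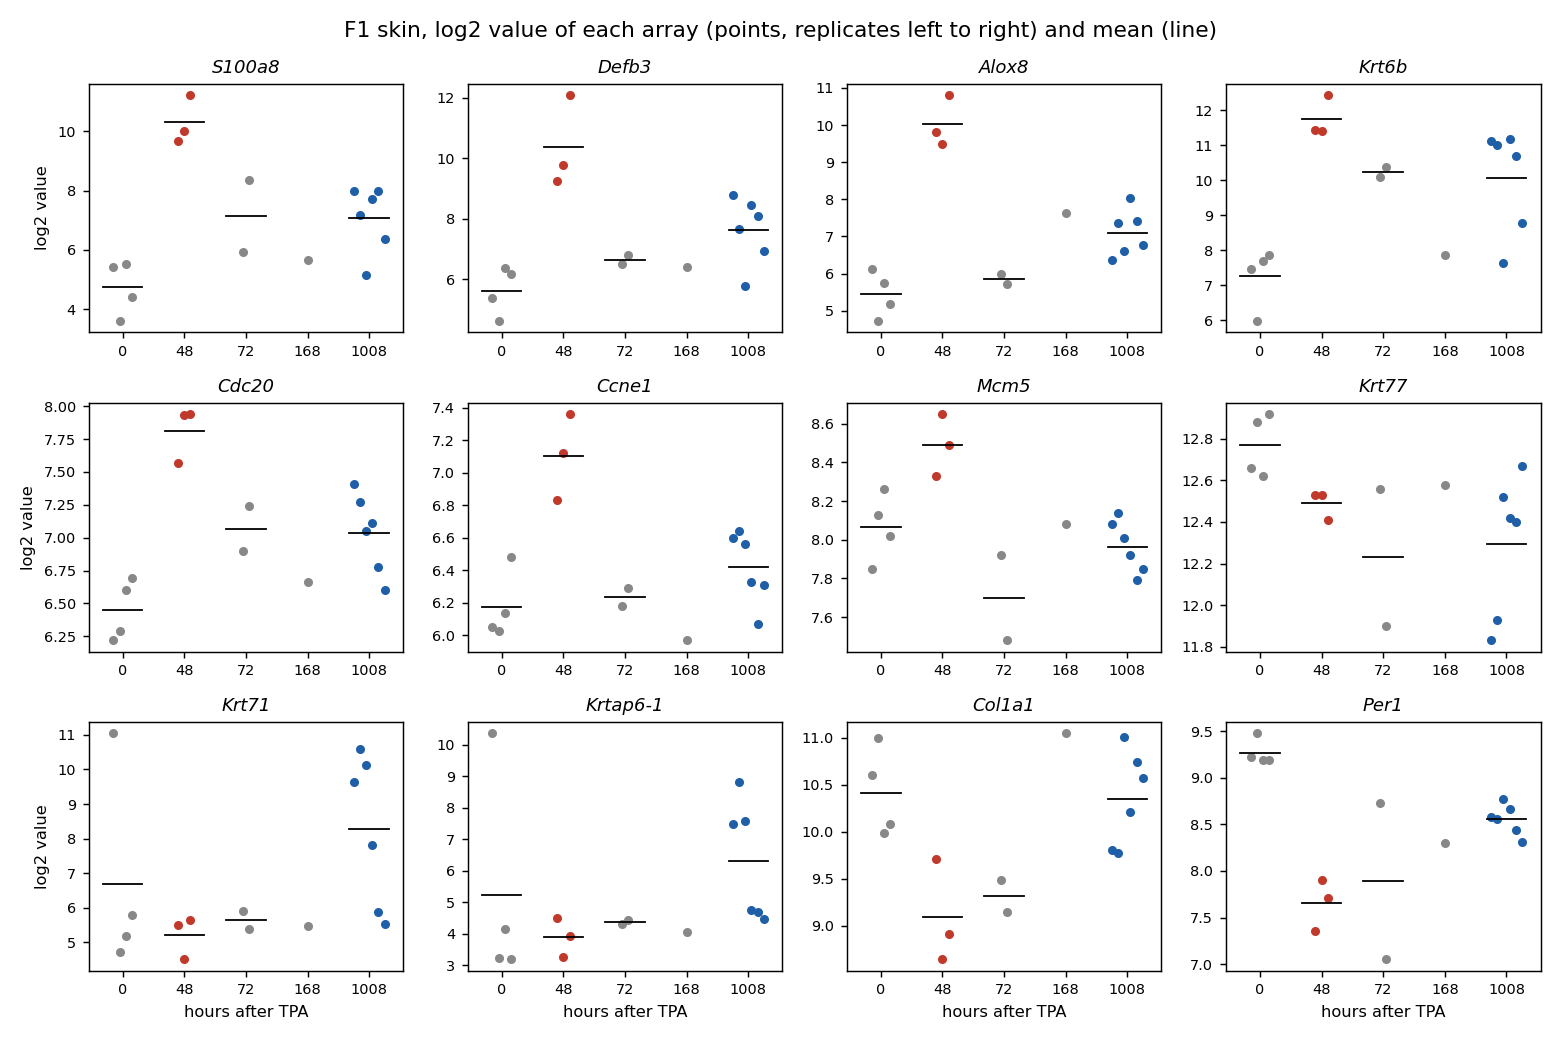
Log2 value in each F1 array (points, replicates from left to right) of 12 genes by hours after TPA, with the group mean as a line where there are at least 2 arrays and axes that do not start at 0. For S100a8, Defb3, Alox8, Cdc20, Ccne1 and Mcm5 all 6 arrays at 1008 h (blue) lie below all 3 at 48 h (red), for Krt6b 2 of the 6 lie far below the other late arrays, and for Col1a1 and Per1 all 6 lie above the 48 h arrays.

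Genes of the cell cycle were lower in point value at 1008 h throughout both lists. All 24 measured DNA replication genes had a lower point value, with a median of -0.49 (-0.44 within batch 2 and -0.51 within batch 3) beside 0.01 for all genes. Of these, 15 of 24 had no overlap, beside 2.06% of all genes, and 0 passed the test. Ccne1, coding for the cyclin that drives entry into S phase, was at 6.83, 7.12 and 7.36 at 48 h and from 6.07 to 6.64 at 1008 h. The change was -0.68 ± 0.18 (95% interval -1.04 to -0.33; adjusted p = 0.319). Mcm5, a subunit of the replicative helicase, was at 8.33, 8.65 and 8.49 at 48 h and from 7.79 to 8.14 at 1008 h (-0.53 ± 0.21). Untreated skin held 7.85 to 8.26 of Mcm5, nearly the same range as the late arrays. The thymidine kinase gene Tk1 (-0.66 ± 0.20), the helicase subunit gene Mcm3 (-0.61 ± 0.21) and the origin recognition gene Orc1 (-0.50 ± 0.22) had no overlap either, and the ribonucleotide reductase gene Rrm2 (-0.70 ± 0.28) had 5 of 6 late arrays below the acute ones. None of the 24 was called against 0 h at either time, and Ccne1 at 48 h, at 0.94 with an adjusted p of 0.00233, missed only the threshold on size.

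All 26 measured mitosis genes had a lower point value too, between -0.82 and -0.23 with a median of -0.60 (-0.63 within batch 2 and -0.48 within batch 3). Of these, 6 of 26 had no overlap, beside 2.06% of all genes. Cdc20, an activator of the anaphase-promoting complex, was at 7.57, 7.93 and 7.94 at 48 h and at 7.41, 7.27, 7.05, 7.11, 6.78 and 6.60 at 1008 h. All 6 late arrays were below the acute ones and 5 of 6 above the highest untreated value of 6.69. Its change was -0.78 ± 0.19 (95% interval -1.16 to -0.40; adjusted p = 0.272). Birc5, coding for survivin of the chromosomal passenger complex, had -0.82 ± 0.21, with 4 of 6 late arrays below the acute ones. The cyclin gene Ccna2 (-0.73 ± 0.24) and the phosphatase gene Cdc25c (-0.73 ± 0.22) had no overlap. At 48 h 20 of the 26 had risen over 0 h, beside 1.04% of all genes. At 1008 h 2, beside 0.515%, were above it by the test: the checkpoint kinase gene Bub1 (1.03; adjusted p = 0.00688) and the kinetochore motor gene Cenpe (1.04; adjusted p = 0.00571). Without replicate 1 of 1008 h Cenpe was still called and Bub1 was not, and with batch 2 alone neither was.

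The promoters of both lists were searched for elements of the cell cycle. An E2F motif (TTTCCCGC, TTTCGCGC, TTTGCCGC or TTTGGCGC, either strand) was found in 8 of 22 promoters of replication genes, or 36.4%, and in 1 of 22 of mitosis genes, beside 2.60% of all. The CHR (TTTGAA, either strand), an element of late cell cycle promoters, was found in 8 of 22 promoters of mitosis genes, or 36.4%, beside 13.6% of replication genes and 13.7% of all. The CCAAT box (either strand) was in 86.4% and 72.7%, beside 35.7% of all. Mitosis genes that hold both motifs are shown: Cdc20, chr4:118437344-118437593 (minus strand), and Ccnb2, chr9:70421555-70421804 (minus strand), with CHR and CCAAT boxes in capitals. The choice did not run over all members, so a member with both motifs and a larger change than Ccnb2 may have been passed over.
Cdc20: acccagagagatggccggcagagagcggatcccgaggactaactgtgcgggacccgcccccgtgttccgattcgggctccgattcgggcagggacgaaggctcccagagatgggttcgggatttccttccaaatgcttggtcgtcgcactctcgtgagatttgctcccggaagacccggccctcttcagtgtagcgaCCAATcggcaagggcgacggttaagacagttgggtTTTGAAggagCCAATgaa
Ccnb2: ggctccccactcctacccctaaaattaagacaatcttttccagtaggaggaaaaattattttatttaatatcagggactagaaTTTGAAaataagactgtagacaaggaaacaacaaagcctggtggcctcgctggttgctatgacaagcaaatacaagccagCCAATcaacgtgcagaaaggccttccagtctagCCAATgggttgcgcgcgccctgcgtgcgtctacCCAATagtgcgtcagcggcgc
Among replication genes with an E2F motif, those shown are Mcm5, chr8:75109259-75109508 (plus strand), where 2 overlapping E2F matches are in capitals, and Orc1, chr4:108579204-108579453 (plus strand), with 1.
Mcm5: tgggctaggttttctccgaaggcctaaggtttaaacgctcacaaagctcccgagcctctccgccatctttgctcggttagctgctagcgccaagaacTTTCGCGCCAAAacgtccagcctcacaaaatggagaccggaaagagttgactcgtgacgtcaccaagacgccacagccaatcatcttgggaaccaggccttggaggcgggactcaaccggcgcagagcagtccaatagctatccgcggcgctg
Orc1: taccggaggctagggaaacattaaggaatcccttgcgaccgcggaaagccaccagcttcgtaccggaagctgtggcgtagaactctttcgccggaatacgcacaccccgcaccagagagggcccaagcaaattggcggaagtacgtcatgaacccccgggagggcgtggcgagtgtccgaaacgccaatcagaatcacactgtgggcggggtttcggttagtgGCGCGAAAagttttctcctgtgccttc
Ccnb2, a cyclin of mitotic entry, was at 8.91, 9.29 and 9.28 at 48 h and from 7.90 to 8.91 at 1008 h (-0.65 ± 0.22). A match describes the letters and is no evidence that a factor was bound in these samples.

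**Figure D2:**
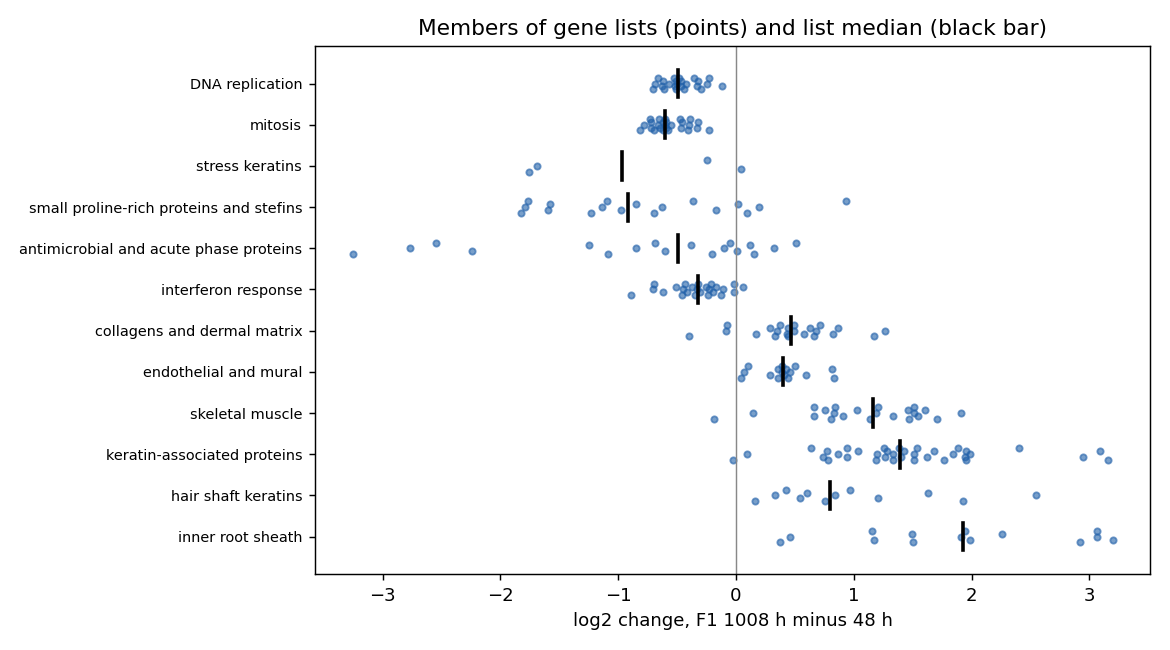
Log2 change between 1008 h and 48 h in F1 skin (horizontal axis) of each measured member (points, spread vertically to be seen) of 12 gene lists, with the median of each list as a black bar. All points of DNA replication and mitosis lie below 0, and all of the inner root sheath and hair shaft keratins above it, while no gene passed the test.

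Hair follicle genes had the largest positive point values, and they came from some of the late arrays. Krt71, a keratin of the inner root sheath, was at 5.49, 4.50 and 5.63 at 48 h. At 1008 h it was at 9.64, 10.60, 10.13, 7.82, 5.87 and 5.54 in replicates 1 to 6. Replicates 1 to 3 were high, replicate 4 lay between, and replicates 5 and 6 were at the level of the acute arrays. The change was 3.06 ± 0.93 (95% interval 1.19 to 4.93; adjusted p = 0.512). Krt25, its partner keratin gene, was at 3.20 ± 0.96, and Tchh, coding for trichohyalin of the inner root sheath, at 3.07 ± 0.85. All 14 measured inner root sheath genes had a higher point value, with a median of 1.92, of which 2, Tchh and Crnn, had no overlap, beside 2.40% of all genes. Their median was 1.10 within batch 2 and 3.51 within batch 3, which holds replicates 1 and 2 of 1008 h. Of 36 measured keratin-associated protein genes 35 had a higher point value and 11 had no overlap, beside the same 2.40%, with a median of 1.39 (0.72 and 2.63 within the batches). Krtap6-1, coding for a protein of the hair shaft matrix, was at 4.49, 3.26 and 3.92 at 48 h and at 7.49, 8.81, 7.56, 4.75, 4.68 and 4.45 at 1008 h (2.40 ± 0.99). Keratin-associated genes are near-identical within families, so their probe sets may not be separate. All 12 hair shaft keratin genes were higher in point value, with a median of 0.80, among them Krt31 (1.63 ± 0.82).

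These genes varied between arrays more than others did. The median standard deviation over the 6 late arrays was 0.19 for all genes, 1.62 for inner root sheath, 1.25 for keratin-associated and 1.04 for hair shaft genes, and 24 of the 50 genes with the widest spread at 1008 h were in these lists. At 48 h the same 3 lists had 0.41, 0.40 and 0.24. Untreated skin was split as well, since replicate 1 of 0 h held 11.05 of Krt71 and the other 3 arrays 4.71 to 5.79. The replicates high for follicle genes are not those low for stress genes: replicate 3 is high for the former and low for the latter, replicates 1 and 2 are high for both, and replicate 6 is low for both. Smaller medians were those of hair matrix regulators (21 measured, 0.13) and melanocyte genes (15 measured, 0.15), beside 0.01 for all genes. In point value 14 of the 21 and 14 of the 15 were higher. A TATA box was found in 28 of 32 promoters of keratin-associated genes, or 87.5%, and in 7 of 13 of inner root sheath genes, or 53.8%, beside 7.45% of all. The box was also in 10 of 17 promoters of small proline-rich and stefin genes, or 58.8%. Promoters of near-identical genes are not independent counts here either. The promoter of Krt25, chr11:99322952-99323201 (minus strand), has it in capitals, 30 bases before the start.
Krt25: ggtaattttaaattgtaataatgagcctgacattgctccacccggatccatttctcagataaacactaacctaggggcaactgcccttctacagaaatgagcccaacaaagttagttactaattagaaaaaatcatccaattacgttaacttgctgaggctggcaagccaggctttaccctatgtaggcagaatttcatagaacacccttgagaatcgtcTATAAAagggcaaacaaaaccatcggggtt

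**Figure D3:**
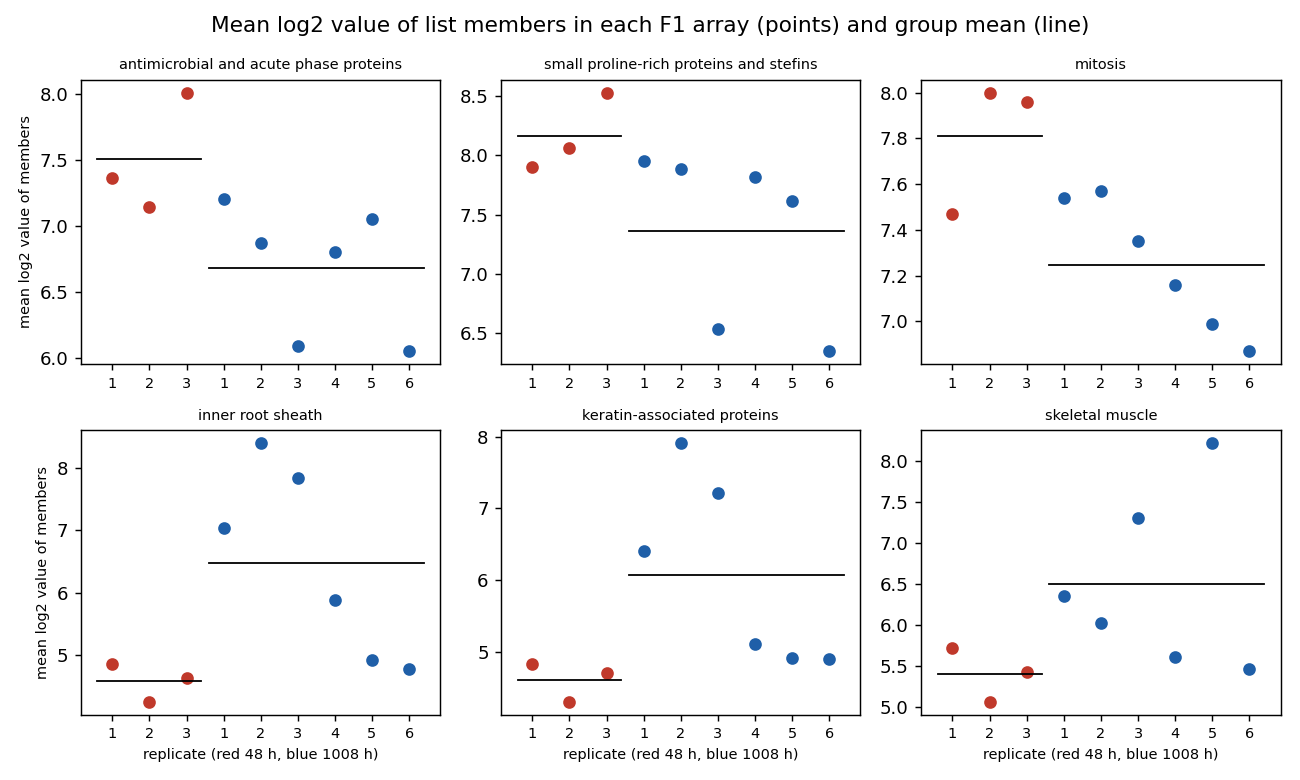
Mean log2 value of the measured members of 6 gene lists in each F1 array at 48 h (red, replicates 1 to 3) and 1008 h (blue, replicates 1 to 6), with group means as lines and axes that do not start at 0. Antimicrobial and small proline-rich genes are lowest in replicates 3 and 6 of 1008 h, inner root sheath and keratin-associated genes are highest in replicates 1 to 3, and skeletal muscle genes in replicates 3 and 5.

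Genes of the dermis were higher in point value at 1008 h. Col1a1, coding for a chain of type I collagen, was at 9.71, 8.64 and 8.91 at 48 h and from 9.77 to 11.01 at 1008 h. All 6 late arrays lay above the acute ones, while the untreated arrays, with a mean of 10.42 ± 0.47 (SD, n = 4), lay among the late ones. The change was 1.27 ± 0.46 (95% interval 0.35 to 2.19; adjusted p = 0.820). The elastin gene Eln, at 6.48, 6.30 and 5.96 and then from 6.72 to 7.47, had 0.87 ± 0.31. Of 22 measured collagen and dermal matrix genes 19 were higher in point value and 3 had no overlap, beside 2.40% of all genes, with a median of 0.47 (0.43 and 0.59 within the batches). All 16 endothelial and mural genes were higher in point value, with a median of 0.40 and no gene without overlap. Skeletal muscle genes went with them: 21 of 22 were higher in point value, with a median of 1.17, and the list's mean value was 5.06 to 5.71 at 48 h and 5.46 to 8.21 at 1008 h. Acta1, the actin gene of skeletal muscle, was at 7.54, 6.14 and 6.76 at 48 h and at 8.19, 8.33, 9.46, 6.90, 10.51 and 6.57 at 1008 h. Replicates 3 and 5, highest for muscle, were also the 2 highest late arrays for the means of dermal matrix genes (8.63 and 8.67) and endothelial and mural genes (7.29 and 7.37). How deep each skin sample was cut is not given in the labels, and its part in these values was not tested.

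Other lists had medians nearer to that of all genes. Of 25 interferon response genes 24 were lower in point value, with a median of -0.32. Of these, 2 had no overlap on the lower side, beside 2.06% of all genes. Chemokines and cytokines (35 measured) had a median of -0.08 and immediate early genes (19 measured) of -0.10. Genes of basal keratinocytes (14 measured) had a median of -0.11 and those of suprabasal cells and the cornified envelope (25 measured) of 0.01. Macrophage (20 measured) and T and NK lymphocyte genes (20 measured) had medians of -0.02 and -0.11. In the circadian clock list Per1, a repressor of the clock, was at 7.36, 7.90 and 7.71 at 48 h and from 8.31 to 8.77 at 1008 h, below the untreated 9.19 to 9.48. Its change was 0.90 ± 0.23 (95% interval 0.43 to 1.37; adjusted p = 0.319). The time of day of sampling is not given in the labels, and its part in this value was not tested. Outside the lists, Prss53 (-1.57 ± 0.33), a serine protease gene, and Jakmip2 (-1.60 ± 0.34) followed Alox8 in adjusted p, at 0.128 each. They were chosen after their values were seen. Prss53 was at 8.03, 7.49 and 8.80 at 48 h and from 6.05 to 6.96 at 1008 h, and Jakmip2 at 6.19, 5.16 and 7.37 and then from 4.40 to 5.10. Leaving out replicate 3 of 48 h brought the adjusted p of both to 1.

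The change in F1 skin differed from that in FVB skin. In the test of F1 change minus FVB change, 212 genes passed, 139 (0.739%) lower and 73 (0.388%) higher in F1. After centring arrays on their medians, which moved the median difference of all genes from 0.09 to -0.04, the split was 207 and 51. The direction of the split also rests on single FVB arrays: without replicate 2 of FVB at 48 h there were 268 lower and 483 higher, and without replicate 3 there were 71 and 73. Of the 212, 76 had a lower point value in F1 and a higher one in FVB, and 57 the reverse. FVB arrays are all of batch 1 and F1 arrays of batches 2 and 3, so strain and batch cannot be told apart, and levels were not compared between them. In the deposited values the difference in a probe set's mean between batches 1 and 2 had a standard deviation over probe sets of 0.0438. Between batches 2 and 3, which the F1 comparison spans, it was 0.0467. Both are as small as if the batches had been aligned. If they were, the batch term of the fit acted on values already adjusted, which was not tested. FVB arrays at 48 h were more scattered than the others compared. Their median standard deviation over genes was 0.30, beside 0.18 in FVB at 1008 h and 0.19 in F1 at each time. The fit uses 1 spread per gene for all groups, so its p-values do not allow for this. The count ran from 82 to 751 when any 1 of the 15 arrays was left out. It was 100 and 751 without replicates 1 and 2 of FVB at 48 h, 82, 123 and 121 without replicates 1, 2 and 3 of FVB at 1008 h, 126 and 87 without replicates 2 and 3 of F1 at 48 h, and 134 without replicate 6 of F1 at 1008 h.

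Antimicrobial genes held the largest differences, lower in point value at 1008 h in F1 and higher in FVB. S100a8 was at 5.66, 10.08 and 7.01 in FVB at 48 h and at 11.52, 10.91 and 10.88 at 1008 h, an increase of 3.52 (adjusted p = 0.00895). The difference of changes was -6.78 (adjusted p = 0.000746). Defb3 rose in FVB by 3.78 (adjusted p = 0.000759), with a difference of -6.55 (adjusted p = 0.000247). Saa2, a serum amyloid A gene, was between 2.39 and 4.59 at 1008 h in F1 and between 3.40 and 4.83 at 48 h, with a difference of -5.72 (adjusted p = 0.00874) made of -0.60 in F1 and a rise of 5.12 in FVB. Of the 18 members, 8 were lower in F1 than in FVB by this test, beside 0.739% of all genes, and 6 to 8 without any 1 array. None was called with batch 3 alone, where the difference for S100a8 was -5.97 (adjusted p = 0.0774). Alox8 differed by -5.17 (adjusted p = 0.000544), made of -2.94 in F1 and a rise of 2.23 in FVB. Of the small proline-rich and stefin genes 5 of 18 were lower in F1, beside the same 0.739%, led by Sprr2b at -4.68 (adjusted p = 0.000266), with 2 to 8 without any 1 array. That count was 2 without replicate 3 of F1 at 48 h, replicate 1 of FVB at 48 h or replicate 1 of FVB at 1008 h, 3 without replicate 6 of F1 or replicate 3 of FVB at 1008 h, and 8 without replicate 2 of FVB at 48 h, and it was 1 with batch 3 alone.

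Cell cycle genes differed in the same direction. Cdc20 was 0.62 higher at 1008 h than at 48 h in FVB (adjusted p = 0.0805), and the difference was -1.40 (adjusted p = 0.00615). Of the mitosis genes 7 of 26 passed, all lower in F1, beside 0.739% of all genes. That count was 14 after centring arrays on their medians, 15 with cyclic loess, 14 without the 2 arrays of narrow range, 4 without the batch term and 0 with batch 3 alone. Without any 1 array the count ran from 1 to 14. It was 1 without replicates 1 or 3 of FVB at 48 h, 1 or 2 of FVB at 1008 h, 2 or 3 of F1 at 48 h or 6 of F1 at 1008 h. It was 2 without replicate 5 and 4 without replicate 4 of F1 at 1008 h, and 14 without replicate 2 of FVB at 48 h. Of the replication genes 2 of 24 passed, beside the same 0.739%, among them Ccne1 at -1.13 (adjusted p = 0.0244), and 0 to 3 without any 1 array: 0 without replicates 2 or 3 of F1 at 48 h, 1 or 3 of FVB at 48 h, or 1 or 2 of FVB at 1008 h, and 1 without replicate 6 of F1 at 1008 h.

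Follicle genes rose at 1008 h in FVB by far more than their point values in F1. All 14 inner root sheath genes were called higher at 1008 h in FVB, with a median change of 6.41 beside 1.92 in F1. So were 35 of 36 keratin-associated genes (5.20 beside 1.39) and 10 of 12 hair shaft keratin genes (3.90 beside 0.80). Of all 18820 genes 357 were called higher in FVB. Krt71 was at 4.98, 5.66 and 4.86 in FVB at 48 h and at 13.59, 13.67 and 13.62 at 1008 h. The FVB arrays at 1008 h were thus uniform where those of F1 were split. The difference was -5.39 for Krt71 (adjusted p = 0.0428), -5.68 for Krtap6-1 (adjusted p = 0.0449), -4.96 for Krt72, an inner root sheath keratin gene, and -4.94 for Gprc5d, a receptor gene known from hair follicles. By this test 8, 14 and 7 members of the 3 lists passed, all lower in F1, beside 0.739% of all genes. These counts rest on single arrays. Without replicate 4, 5 or 6 of F1 at 1008 h, any F1 array at 48 h, any FVB array at 1008 h, or replicate 1 or 3 of FVB at 48 h, they were 1 to 3, 1 to 6 and 3 to 4. Without replicate 1, 2 or 3 of F1 at 1008 h or replicate 2 of FVB at 48 h they were 10 to 14, 15 to 30 and 6 to 10. Krt71 and Krtap6-1 each passed in 4 of 15 such fits. With batch 2 alone the counts were 14, 31 and 9, and with batch 3 alone 6, 2 and 3. Genes higher in F1 than in FVB included Krt77 at 3.25 (adjusted p = 0.0166), a type II keratin gene of skin, which fell in FVB by 3.45 and was at -0.19 in F1. Its adjusted p was 0.121 without replicate 1 of FVB at 1008 h. The macrophage elastase gene Mmp12 fell in FVB by 2.78, with a difference of 2.56 (adjusted p = 0.0249; 0.145 without replicate 1 of FVB at 48 h). Per1 differed by 1.74 (adjusted p = 0.00648), and Alox12e by 2.84 (adjusted p = 0.00827). The urate oxidase gene Uox differed by -5.11 (adjusted p = 0.00381). In F1 at 48 h it was at 4.90, 5.26 and 8.43, and without the array at 8.43, replicate 3, the difference was -4.02 (adjusted p = 0.0409). Uox is known for its expression in liver. The liver gene list had a median change of -0.33 in F1 and 2.00 in FVB, where 1 of 24 measured genes was called higher. The part of that RNA in the value was not tested.

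**Figure D4:**
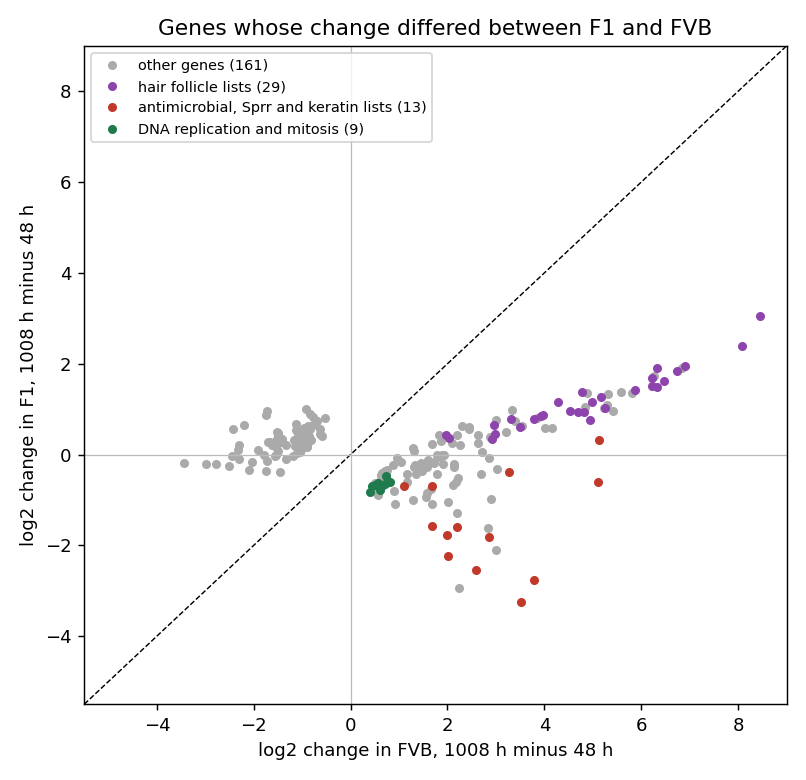
Log2 change between 1008 h and 48 h in FVB (horizontal) and F1 (vertical) for the 212 genes whose change differed between the strains, coloured by gene list, with the dashed line at equal change. Follicle genes (29) lie above 0 in both strains and below the line. Cell cycle genes (9) and most antimicrobial and small proline-rich genes (13) are below 0 in F1 and above it in FVB. The colour of the latter also covers the stress keratin list, of which no gene passed.

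Against SPR skin no difference passed. Of 18820 genes, 0 (0.00%) were called by limma in F1 change minus SPR change, 431 had an unadjusted p under 0.05, and the lowest adjusted p was 0.825. Without replicate 6 of F1 at 1008 h 3 genes were called. With 2 arrays a group in SPR the intervals are wide. S100a8 was 4.31 lower at 1008 h than at 48 h in SPR, and its difference was 1.06 with a 95% interval from -1.63 to 3.75. Cdc20 was 0.79 lower in SPR, with a difference of 0.01 (-0.65 to 0.67). Median changes in SPR were -0.63 for replication, -0.71 for mitosis and -1.07 for antimicrobial genes, beside 0.06 for all genes. The inner root sheath list had a median of -0.54 in SPR. Krt71 was already at 11.55 and 10.85 in SPR at 48 h and at 10.73 and 10.56 at 1008 h, and its difference from F1 was 3.54 (0.26 to 6.83; adjusted p = 0.9999).

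**Figure D5:**
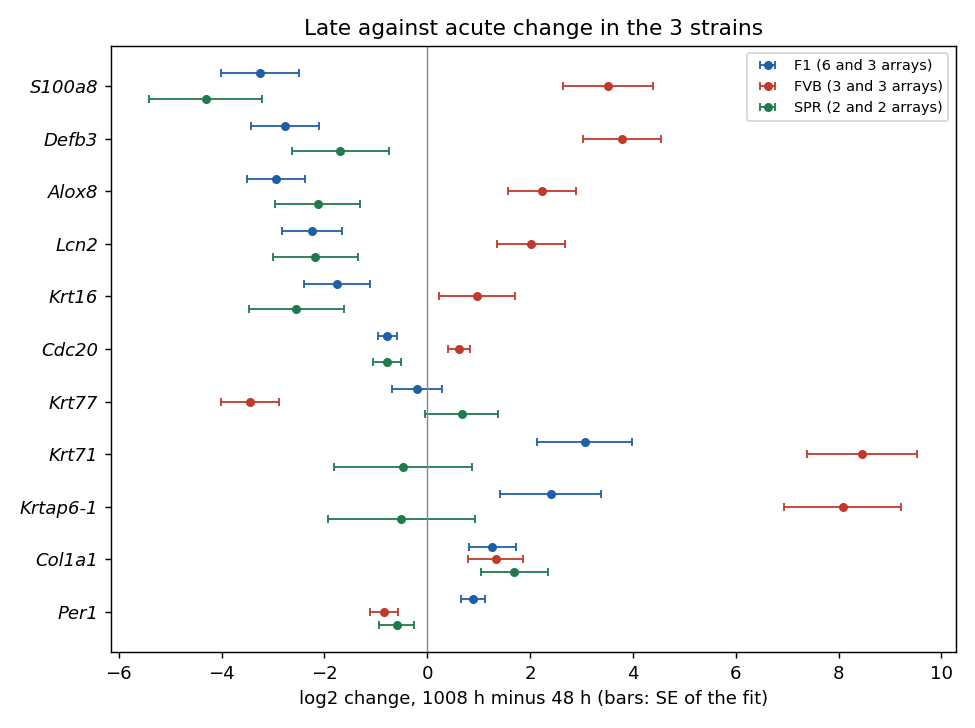
Log2 change between 1008 h and 48 h (horizontal axis, bars are standard errors of the fit) of 11 genes in F1 (blue, 6 and 3 arrays), FVB (red, 3 and 3) and SPR (green, 2 and 2). S100a8, Defb3, Alox8, Lcn2, Krt16 and Cdc20 lie below 0 in F1 and SPR and above it in FVB, and Col1a1 lies above 0 in all 3.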

How the data were processed

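Biotin-labelled RNA of dorsal skin was hybridised to Affymetrix arrays, per the labels' protocols. The authors deposited log2 expression values for 35556 probe sets, made with RMA (no version given), per the submitters' processing notes. The sources used here do not say how batches were treated. The platform annotation gave 21218 probe sets 1 gene symbol, 1881 several (not used) and 12457 none here. For each of 18820 genes the probe set of highest mean over the 66 arrays was taken. limma 3.58.1 in R 4.3.3 (lmFit, eBayes) fitted 66 arrays of 27 groups with a batch 3 term, leaving 38 residual degrees of freedom. A gene was called at a two-sided Benjamini-Hochberg adjusted p under 0.05 over all genes with a log2 change of at least 1. The 3 arrays without a strain were not used. Steps were tested on simulated arrays.

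The comparison, the 45 gene lists and the tests were chosen with earlier results of these data known. Named genes are list members, the 10 largest differences called against FVB, and genes chosen after their values were seen (Prss53, Jakmip2, Ifitm6 and those called only when an array was left out). The promoters shown were chosen by size of change among list members with the motif. The choice did not run over all members, so a larger change may have been passed over. The replicate numbers were checked as a pairing, with alternatives for scaling, filters, batches and left-out arrays.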

Additional observations from a re-analysis of the deposited data

Results flagged for a closer look

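In 9 of 100 tests (50 genes, each in the F1 arrays at 0 h and at 1008 h) the highest or lowest array lay far from the others for the group's range, and all 9 were at 0 h. Chance flags about 1 in 20 groups, and genes of 1 array are not independent. Replicate 1 of untreated F1 skin was the highest for the follicle genes Krt71 (11.05), Tchh (11.36), Crnn (9.74), Krtap6-1 (10.36), Krt31 (9.56) and Krt72 (9.36), and was apart for Mmp12 (5.42). Replicate 2 was apart for Acta1 (6.58) and Per1 (9.48).

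The change from 48 h to 1008 h differed between F1 and FVB skin by limma's test of the difference for 212 genes. Among those named, the F1 change minus the FVB change was -6.78 for S100a8, -6.55 for Defb3, -5.72 for Saa2, -5.68 for Krtap6-1, -5.39 for Krt71, -5.17 for Alox8, -5.15 for S100a9, -5.11 for Uox, -4.95 for Krt72, -4.93 for Gprc5d and -1.40 for Cdc20, and it was 3.25 for Krt77 and 2.56 for Mmp12. All FVB arrays are of another batch than those of F1.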

How the results depend on the processing

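With 3 arrays at 48 h, no fit of the comparison of 1008 h and 48 h gave more than 23 calls. The count of 0 became 2 with cyclic loess, 1 with F1 arrays only, 1 with only the groups compared, 23 with batch 3 only and 2 without the 2 arrays of narrow range, and it ran from 0 to 4 when any 1 array was left out. It stayed 0 under the other settings: robust eBayes, median centring, no dim genes, all probe sets, no fold threshold, no batch term and batch 2 only.

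The count of 262 at 48 h against 0 h became 399 without a fold threshold, 0 with batch 2 only and 469 with batch 3 only, and 120 to 264 when any 1 array was left out. The count of 151 at 1008 h against 0 h became 314, 0 and 960 under the same settings, and 63 to 255. The count of 212 against FVB became 519 with cyclic loess, 499 with only the groups compared, 39 with batch 3 only and 567 without the narrow arrays, and 82 to 751. The count of 0 against SPR became 0 to 3. F1 arrays alone could not give a strain difference, and batch 3 alone none with SPR. For all of these the cause was not tested.

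Replicate numbers were not taken as a pairing, since same-numbered arrays at 48 h and 1008 h deviated together with correlations of 0.001, 0.14 and -0.01. The replicate block gave each replicate number 1 effect over all groups and strains, so it is no pairing within F1. Numbers 5 and 6 occur only in F1 at 1008 h, so the block in effect took those arrays out of that mean. Number 4 occurs only in F1 at 0 h and 1008 h. The counts with the block therefore partly reflect fewer late arrays. With the replicate block the count between 1008 h and 48 h became 17, at 48 h against 0 h 223 and at 1008 h against 0 h 243 (an order opposite to that of 262 and 151), against FVB 54, with 0 mitosis, 0 replication, 0 inner root sheath, 0 hair shaft and 1 keratin-associated gene, 2 small proline-rich and stefin genes and 8 antimicrobial genes lower in F1, and against SPR 1.

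Some single genes changed sign between 1008 h and 48 h. Defb4 became -0.994 with batch 2 only, and -0.118 to 0.767 without any 1 array. Krt6a became 0.090 with the replicate block, 1.052 with batch 3 only and -0.583 to 0.218 without any 1 array. Krt17 became -0.028 after median centring, -0.108 with batch 2 only and -0.063 to 0.114 without any 1 array. Stfa3 became 0.088 with batch 3 only, Krt77 0.036 and Ifitm6 0.234 with batch 2 only, and Mmp12 0.807 with batch 3 only and -0.538 to 0.083 without any 1 array. Of the 13 named differences from FVB none changed sign. When each of 15 arrays was left out in turn, the call held in 4 fits for Krtap6-1 and for Krt71, 5 for Krt72, 6 for Gprc5d, 11 for Mmp12, 13 for Krt77 and all 15 for the other 7. Probe signal limits low genes such as Saa2.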

Other observations

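Krtap15, coding for a protein of the hair shaft, had the widest spread of any gene over the 6 F1 arrays at 1008 h, with a standard deviation of 2.67 on the log2 scale. Among widely spread genes outside the follicle lists was Ifitm6, of the interferon-induced transmembrane family, chosen after its values were seen. It was at 4.17, 4.48, 7.25, 4.59, 5.23 and 9.60 at 1008 h, so that 4 arrays were below the 48 h values of 6.16, 7.04 and 6.72 and 2 above them. Late cornified envelope genes (14 measured) were all lower in point value at 1008 h, with a median of -0.29. Of them, 4 had risen over 0 h at 48 h, beside 1.04% of all genes. Dendritic and Langerhans cell genes (16 measured) had a median of 0.20, mast cell genes (15 measured) of 0.20 and adipocyte genes (18 measured) of 0.12.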
